A study of Arabidopsis thaliana with 4 samples.

Results

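DNA methylation in the bodies of 5748 protein-coding genes of Arabidopsis thaliana is described here. These genes were chosen because, in each of the 2 mock libraries, the stretch from transcription start to transcription end held at least 20 CG sites with a methylation level of 0.3 or more and at most 2 CHG plus CHH sites at that level (H is A, C or T). They made up 20.9% of the 27444 protein-coding genes of the nuclear chromosomes. A further 3328 genes passed the CG minimum and had more CHG or CHH sites than allowed, and 18368 genes had fewer than 20 CG sites in at least 1 mock library. The assay was EM-seq, enzymatic methylation sequencing. Its enzymes shield methylated cytosines, which stay C in the reads, and turn the remaining cytosines into bases that appear as T. Shoot apices were treated for 24 h with 0.025% of the wetting agent Silwet, either alone (mock, 2 libraries) or together with sodium nitroprusside at 1 mM (SNP, 2 libraries), a compound that releases nitric oxide. The labels give the genotype Col-0 for all 4 libraries, whereas the study's methods name ap1/cal plants, in which inflorescence meristems overproliferate. The study's methods call the replicates biological, without saying how the plants were divided among them. Genomic DNA holds no expression marker against which the labelled tissue could be checked.

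In plants, CG methylation is copied after each round of DNA replication by the methyltransferase MET1, which acts on the hemimethylated CG of the new double strand. Transposons usually carry methylation in CG, CHG and CHH together. Many transcribed genes carry methylation in CG alone, a state named gene body methylation, which is known to sit in the interior of long and moderately expressed genes and to avoid their ends. The methylated CG is a palindrome, so that the cytosines of both strands can be methylated at the same position.

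The letters of a few gene stretches show how the methylated sites lie. In the 200-base windows printed below, a CG is in capitals where the cytosines of both strands were listed at a level of 0.3 or more in all 4 libraries, and in lower case otherwise. Letters are those of the RefSeq genome TAIR10.1, written 5′ to 3′ on the coding strand of each gene. The first pair is from BIG (AT3G02260), which encodes a giant protein needed for auxin transport and had the most methylated CG sites of any member. It contrasts the window with the most sites, which begins 16761 bp into the gene at chr3:431721-431920 (minus strand), with the first 200 coding bases at chr3:448290-448489 (minus strand).
BIG, window with the most sites: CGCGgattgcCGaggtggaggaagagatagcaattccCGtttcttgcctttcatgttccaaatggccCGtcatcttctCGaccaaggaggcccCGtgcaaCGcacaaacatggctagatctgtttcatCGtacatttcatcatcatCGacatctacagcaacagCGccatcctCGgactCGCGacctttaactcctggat
BIG, first coding bases: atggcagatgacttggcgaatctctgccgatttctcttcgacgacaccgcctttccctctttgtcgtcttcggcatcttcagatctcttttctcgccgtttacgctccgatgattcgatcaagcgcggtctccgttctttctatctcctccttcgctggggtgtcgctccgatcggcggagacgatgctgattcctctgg
The window with the most sites held 14 CG pairs, all of them methylated on both strands in the 4 libraries. The first coding bases held more CG pairs, 21, and none of them was methylated on both strands in all libraries. Only 1 of their 42 cytosines was listed at all, in mock 1.

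The next pair is from TRN2 (AT5G46700), which encodes a tetraspanin known for a role in leaf and meristem patterning. The methylated window is at chr5:18952195-18952394 (plus strand) and the first coding bases are at chr5:18951035-18951234 (plus strand).
TRN2, window with the most sites: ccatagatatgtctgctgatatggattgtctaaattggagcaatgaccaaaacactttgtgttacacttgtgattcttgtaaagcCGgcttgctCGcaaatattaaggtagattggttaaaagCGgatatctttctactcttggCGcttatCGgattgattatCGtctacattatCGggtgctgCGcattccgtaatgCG
TRN2, first coding bases: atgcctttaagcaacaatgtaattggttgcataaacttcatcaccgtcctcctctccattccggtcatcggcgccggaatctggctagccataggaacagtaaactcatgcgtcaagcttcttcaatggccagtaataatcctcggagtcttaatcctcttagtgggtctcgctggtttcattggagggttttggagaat
In TRN2, every CG called in both mock libraries lay within 115 bp, which begin 1438 bp from the start of the gene. The window holds 10 CG pairs, 9 of which were methylated on both strands in all libraries, while the first 200 coding bases hold 8 CG pairs and none of their 16 cytosines was listed in any library.

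Methylated sites also lay in introns. The window of AT2G26780, an ARM repeat protein, at chr2:11417596-11417795 (plus strand) is shown because its 127 coding bases are followed by 73 intron bases, and all 8 CG pairs were methylated on both sides of the junction.
AT2G26780, exon and intron: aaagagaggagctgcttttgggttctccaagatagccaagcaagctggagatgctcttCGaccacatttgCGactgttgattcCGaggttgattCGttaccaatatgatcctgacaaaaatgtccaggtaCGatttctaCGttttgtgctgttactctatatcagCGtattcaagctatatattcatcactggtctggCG
AT5G35688, annotated as a zinc metalloproteinase-like protein, is shown at chr5:13864462-13864661 (minus strand) as an exception to an unmethylated gene start, shared by some other short members. These are its first 200 coding bases, and all 7 CG pairs were methylated.
AT5G35688, first coding bases: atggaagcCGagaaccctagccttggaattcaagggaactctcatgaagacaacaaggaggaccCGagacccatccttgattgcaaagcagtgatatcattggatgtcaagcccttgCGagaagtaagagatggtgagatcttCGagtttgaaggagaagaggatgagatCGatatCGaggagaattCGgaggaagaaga

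The deposited lists hold called sites only. Each library listed between 3857352 and 4134559 nuclear cytosines, with 16636740 to 19556850 reads on CG sites and a median CG depth of 8 to 10 reads. A cytosine that is not listed was either not covered or covered without being called, and the lists do not separate these. For this reason methylation is given here in 2 ways. The share called is the percentage of all CG cytosines in the reference sequence that were listed at a level of 0.3 or more. The CG level is the percentage of reads that were methylated, summed over sites listed in all 4 libraries with at least 5 reads in each. A site that lost all methylation in a library is not visible in the second measure.

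The bodies of the 5748 genes contained 955752 CG cytosines, each counted once. Of these, 31.7% were called in mock 1 and 31.6% in mock 2, which are the values that chose the genes, and 32.0% in SNP 1 and 31.9% in SNP 2. Listed sites had a median depth of 9 to 11 reads and a maximum of 32 to 39. Most sites were close to fully methylated, with 57.8% and 55.7% of listed sites at a level of 0.9 or more in the mock libraries. Per gene, the median number of called CG sites was 42 in every library. The highest was 468 and 471 (mock 1 and 2), and 477 and 476 (SNP 1 and 2). The share called per gene was alike in both mock libraries, with a median absolute difference of 0.714 percentage points. The rule sets a limit that many genes sit close to. There were 238 members with exactly 20 CG sites in the lower mock library and 146 genes with 19 sites that passed the CHG and CHH limit, and their median lengths were 2407.5 and 2525 bp. Likewise 932 members had exactly 2 CHG plus CHH sites in the higher mock library, and 601 genes with 20 or more CG sites had exactly 3. Of the 3328 genes over the CHG and CHH limit, 1836 (55.2%) had at most 10 such sites.

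Genes with CG-only body methylation were long and rich in exons. Their median length was 3203.5 bp (quartiles 2510 and 4166.25 bp), compared with 1711 bp for genes with fewer than 20 CG sites and 3136 bp for genes over the CHG and CHH limit. The shortest member was 303 bp and the longest 17804 bp. The share of genes that met the rule was 0.616% up to 1 kb (27 of 4381), 5.72% between 1 and 2 kb and 26.2% between 2 and 3 kb. It was 44.1% between 3 and 4 kb, 50.5% between 4 and 6 kb and 48.2% above 6 kb. A minimum of 20 sites is harder to reach in a short gene, so this relation is in part built into the rule. The median number of exons was 8, and 7.25% of the members had a single exon. Genes over the CHG and CHH limit had a median of 6 exons, and 12.1% of them had a single exon. In genes with fewer than 20 CG sites these values were 3 and 26.0%. Exon number was not compared at equal gene length. CG dinucleotides were scarcer than base composition predicts. The ratio of observed to expected CG had a median of 0.616 in the members, 0.643 in genes over the CHG and CHH limit and 0.727 in genes with fewer than 20 CG sites. The GC content was similar in the 3 classes, with medians of 39.1%, 38.9% and 38.7%. Members were spread over all chromosomes, with 22.2% of the genes on chromosome 1, 19.0% on chromosome 2, 20.1% on chromosome 3, 21.2% on chromosome 4 and 21.4% on chromosome 5. In windows of 1 Mb with at least 50 genes, the share of members had a median of 21.0% and ranged from 1.65% to 31.8%. The 9 windows with fewer genes held 26 members among 230 genes (11.3%).

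**Figure D1:**
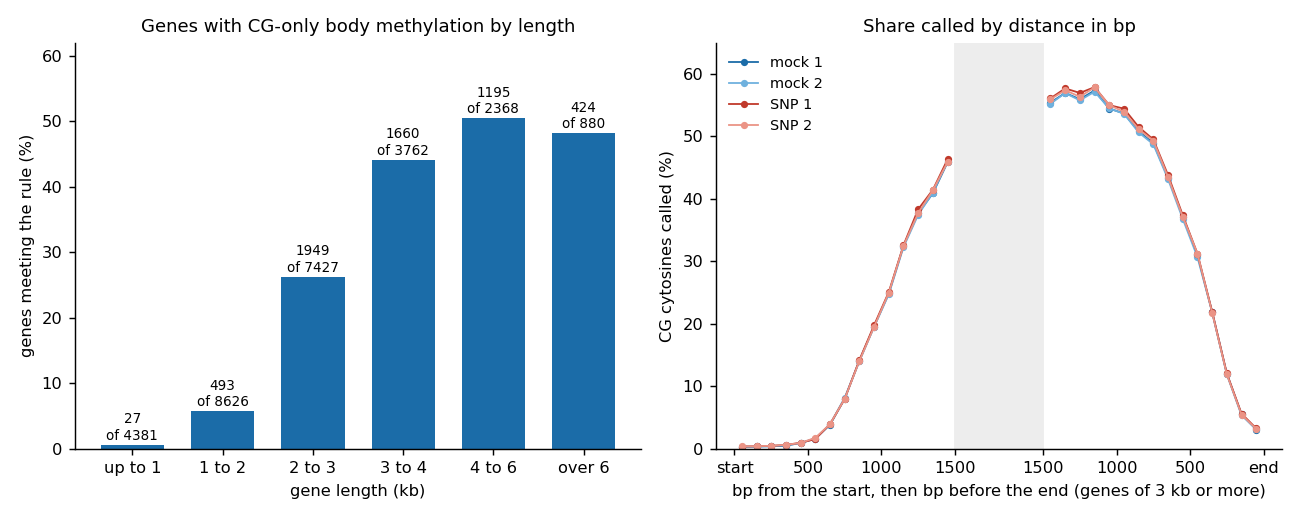
Left, percentage of protein-coding genes that met the rule by gene length in kb, with the number of members and of genes above each bar. Right, percentage of CG cytosines called by distance in bp from the start and before the end of members of 3 kb or more, one line per library. The share of members rises from 0.616% to 50.5% with length, and the share called rises slowly from the start and falls steeply towards the end.

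Along the gene, methylation rose from almost none at the start to a maximum past the middle and fell again before the end. Each body was divided into 10 bins of equal length. In mock 1, the share of CG cytosines called was 0.810% in the first bin, 6.67% in the second, 22.6% in the third, 38.6% in the fourth and 49.8% in the fifth. It reached 58.2% in the seventh bin and was 40.6% in the ninth and 14.98% in the last. All 4 libraries followed the same curve, with 58.0% to 58.7% in the seventh bin. The first bin lay 52.2 ± 0.279 percentage points (mean ± SD over the 4 libraries) below the fifth and sixth bins and the last bin 38.1 ± 0.228 points below them. Both differences had the same sign in 4 of 4 libraries, and an exact two-sided sign-flip permutation test gave p = 0.13, the smallest that 4 libraries allow. The CG level at shared sites followed the share called, with 79.2% in the first bin, 89.6% in the seventh and 84.2% in the last (mock means). The low point extended into the flanks, with 3.61% of the CG cytosines called in the 200 bp before the start and 8.21% in the 200 bp after the end in mock 1. At 800 to 1000 bp from the gene these values were 20.1% and 18.3%. Genes over the CHG and CHH limit had a higher share called at both ends, with mock means of 11.9% in the first and 31.1% in the last bin. Their CG level summed over reads at shared sites was lower than in the members in every bin. Its mock means were 64.3% in the first, 71.5% in the seventh and 74.5% in the last bin. Per gene the order was the opposite, with a median mock level of 90.2% in these genes and 88.5% in the members.

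**Figure D2:**
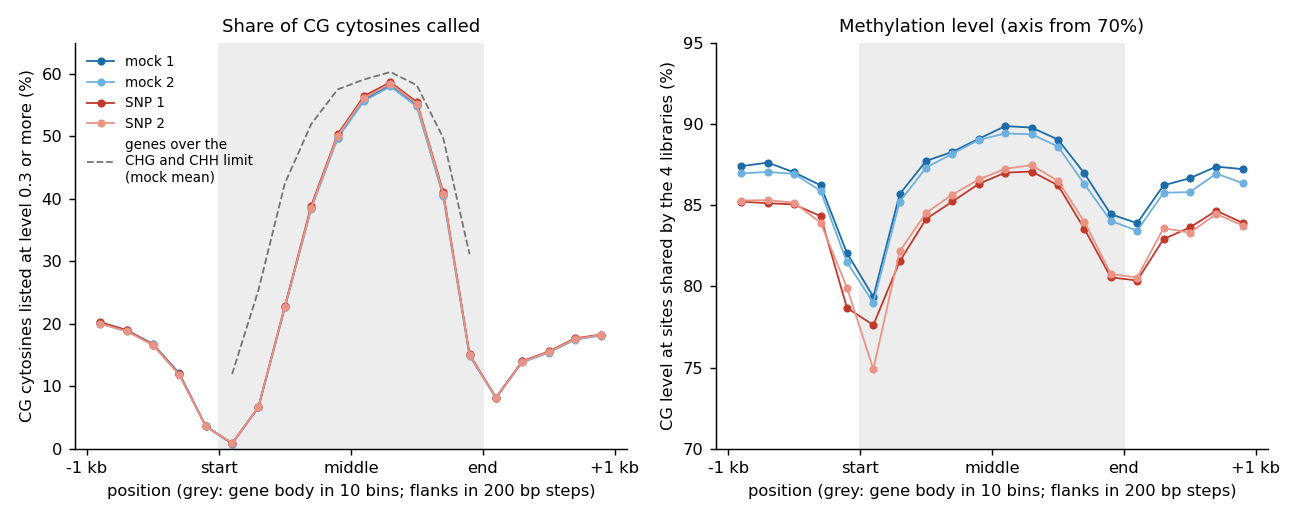
Share of CG cytosines called (left) and CG level at shared sites (right, axis from 70%) in the 1 kb before the start, in bins of the gene body (grey) and in the 1 kb after the end, one line per library. The dashed line is the mock mean of the genes over the CHG and CHH limit. The 4 libraries overlap in the share called, which peaks at 58.0% to 58.7% in the seventh bin, and the SNP libraries lie below the mock libraries in the level along the whole gene.

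In base pairs, the start of the gene stayed unmethylated for longer than the end. In members of 3 kb or more, 0.354% of the CG cytosines in the first 100 bp were called in mock 1, 1.64% between 500 and 600 bp and 19.6% between 900 and 1000 bp. Counted from the end, 3.08% were called in the last 100 bp, 21.9% between 300 and 400 bp and 53.7% between 900 and 1000 bp. The first CG called in both mock libraries lay a median of 1114 bp (quartiles 882 and 1386 bp) from the start, and in 97.7% of the members it lay beyond the start codon, with a median distance of 814 bp from it. The last one lay a median of 491 bp (quartiles 334 and 703 bp) before the end and in 86.8% of the members upstream of the stop codon. Between these sites, the methylated stretch covered a median of 46.8% of the gene. Accordingly, only 0.885% of the CG cytosines in 5′ untranslated exon sequence were called (mock mean), compared with 39.4% in coding sequence and 9.85% in 3′ untranslated sequence. Within the coding sequence, the 3 codon positions were alike once the gene ends were left out. In bins 3 to 9, 50.1%, 49.4% and 49.5% of the CGs with their C at codon positions 1, 2 and 3 were called. Both strands were called equally often, with 31.6% on the coding and 31.7% on the template strand.

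The shape of the profile depended on gene length. Members were divided by length into 4 classes of equal size, with ranges of 303 to 2510 bp, 2511 to 3203 bp, 3204 to 4166 bp and 4167 to 17804 bp. In the shortest class the share called in mock 1 was 8.97% in the third bin and peaked at 62.4% in the seventh, whereas in the longest class it had already reached 41.95% in the third bin and stayed between 52.1% and 55.9% from the fourth to the eighth. Over the whole body, 29.6%, 28.0%, 29.4% and 36.4% of the CG cytosines were called from the shortest to the longest class. The longest class exceeded the shortest by 7.05 ± 0.296 points (SD over 4 libraries, higher in 4 of 4, exact two-sided sign-flip permutation p = 0.13, the smallest possible). As a mean over genes, the difference was 4.61 points. A minimum of 20 sites also raises the share that a short gene needs to be a member. The mock libraries in this test also chose the genes by their called sites, so the length comparison is a description and not independent of the rule. The CG level rose in the same order, with mock means of 85.2%, 87.2%, 88.0% and 90.2%. Members with more than 20 exons had the highest share called, 40.4%, compared with 30.3% in members with 1 or 2 exons (mock means).

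Exons were more often methylated than introns. Of 783044 exonic CG cytosines 32.9% were called, and of 165707 intronic ones 28.2% (mock means). The difference was 4.71 and 4.62 points within the mock libraries, and 4.60 and 4.46 points within the SNP libraries. Its mean of 4.60 ± 0.103 points (SD) exceeded the spread between libraries, with an exact two-sided sign-flip permutation p of 0.13, the smallest that 4 libraries allow. As a mean over genes the difference was 8.76 points. It depended on position. In the middle 8 bins of the body the difference over sites was 11.4 points, and in the seventh bin 61.3% of exonic and 44.9% of intronic CG cytosines were called (mock means). In the first and last bins the order was inverted, with 0.778% in exons and 1.43% in introns at the start, and 15.1% and 19.0% at the end. First exons were rarely methylated (5.89%), internal exons most often (48.8%), and last exons (33.9%) and the exons of single-exon genes (30.7%) lay between them. The internal exons exceeded the first exons by 43.1 ± 0.267 points (SD over 4 libraries). Position in the gene was not held fixed here, and first exons lie at the start, where few CG cytosines of any exon were called. Near splice junctions the classes approached each other. The shares by distance from a junction are for sites away from the gene ends, so they cannot be set against the whole-body shares above. Within 10 bp of a junction 46.6% of exonic and 40.3% of intronic CG cytosines were called. At 20 to 50 bp the values were 52.1% and 36.8%, and at 200 to 500 bp they were 48.6% and 27.1% (mock means). Although introns were called less often, the CG level at their shared sites was slightly higher than in exons, with 89.2% and 88.2% (mock means).

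**Figure D3:**
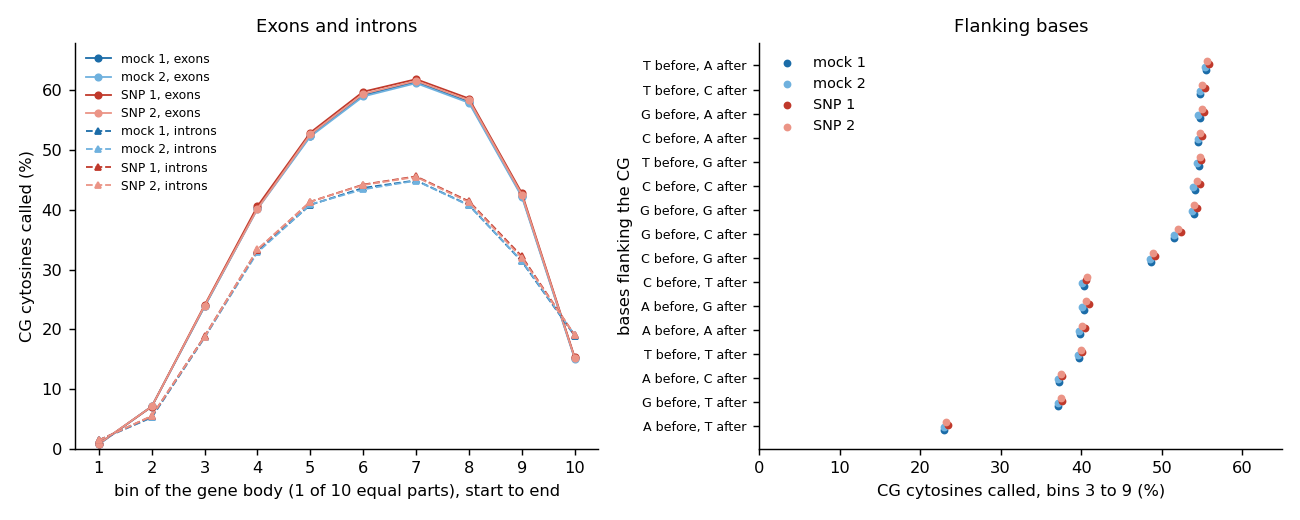
Left, share of CG cytosines called in exons (solid lines) and introns (dashed lines) by bin of the gene body, one line per library. Right, share called in bins 3 to 9 by the base before and the base after the CG, one point per library. Exons exceed introns from the second to the ninth bin, and a CG between A and T is called least often, at 23.0% to 23.4%.

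The bases next to the CG separated the sites further. In bins 3 to 9, only 23.0% of the CG cytosines in ACGT were called (mock mean), compared with 55.4% in TCGA. The difference was 32.5 ± 0.0780 points (SD over 4 libraries) and had the same sign in 4 of 4 libraries (exact two-sided sign-flip permutation p = 0.13, the smallest possible). All motifs with A before or T after the CG lay between 23.0% and 40.2% (mock means), and the other 9 lay between 48.6% and 55.4%. Each of these motifs was read on both strands, so that a motif and its reverse complement describe the same positions. The CG level was also lowest in ACGT, at 84.3%, compared with 89.7% in TCGA, while the highest levels, 90.7%, were found in GCGA and GCGC (mock means). The methylated windows of BIG and TRN2 shown above hold no ACGT, and neither do their first coding bases. The window of AT2G26780 holds 1, which was called on both strands in all 4 libraries.

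Among single genes, the members with the most called sites encode very large proteins. BIG (17804 bp, 14 exons) had 468 and 471 called sites among 792 CG cytosines in the mock libraries and 477 and 476 in the SNP libraries. It was followed by AT5G23110, a RING finger protein, with 399, 393, 403 and 403 called sites in mock 1, mock 2, SNP 1 and SNP 2. SPI, a BEACH domain protein known for a role in cell shape, had 381, 379, 391 and 390. AT2G25730, annotated with a FYVE zinc finger, had 376, 374, 382 and 378, the ubiquitin ligase UPL2 had 348, 348, 351 and 355, and AT2G26780 had 306, 306, 311 and 310. In these 6 genes between 58.1% and 61.7% of the CG cytosines were called (mock means). Their first called site lay 691 to 1541 bp from the start. The CG level in these genes varied little between libraries. In BIG it was 92.2% and 93.2% in mock and 91.01% and 91.5% in SNP libraries.

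Short genes led the members by share called, and a short gene has to be densely methylated to reach 20 sites. In AT5G35688 (498 bp, 1 exon) all 40 CG cytosines were called in each of the 4 libraries, and the first lay 50 bp from the start. AT3G30247, a member of a family named for gametogenesis, had a mock mean of 90.9%, and AT3G43583 had 49 and 59 of its 60 CG cytosines called in mock 1 and mock 2. RALFL12, which encodes a peptide of the RALF family of secreted signals, had 86.7%, AT1G72545 had 84.6% and AT5G52045 had 84.5%. None of the 6 was longer than 678 bp. Their called sites began 11 to 82 bp from the start, and 4 of the 6 had a single exon. In AT1G72545 the CG level was 88.96% and 93.6% in mock and 77.4% and 83.7% in SNP libraries, a difference called by edgeR (adjusted p = 0.0245) but not without mock 2 or without SNP 1 (adjusted p = 0.205 and 0.316). The neighbouring RALFL11 was also a member, with 30, 29, 28 and 32 called sites among 40 CG cytosines. Whether reads were shared between these related genes was not tested.

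**Figure D4:**
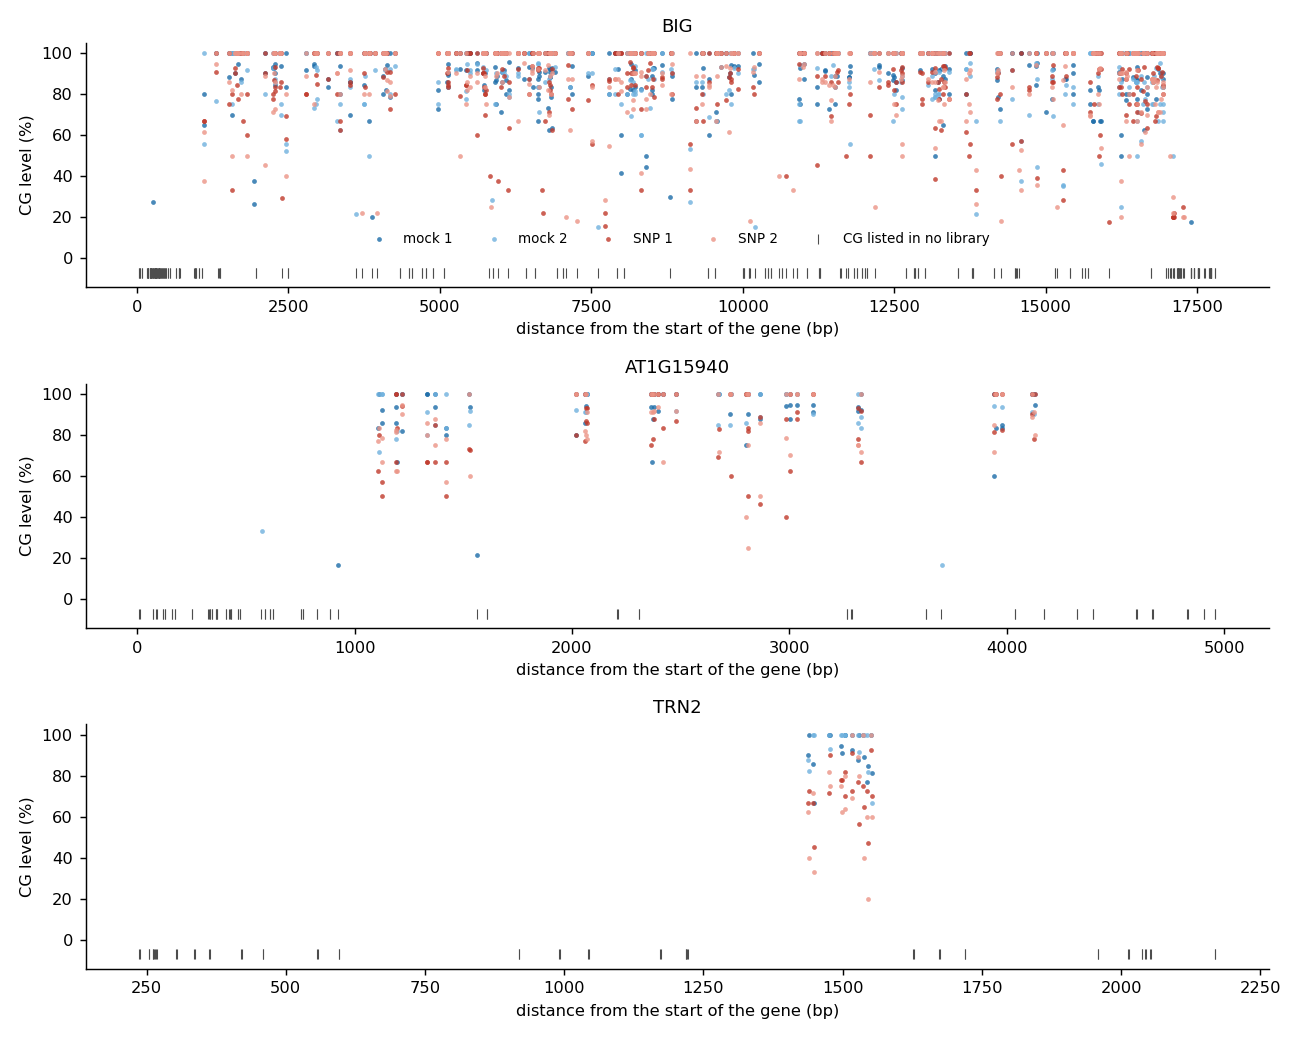
CG level of each listed site by distance from the start of the gene in BIG, AT1G15940 and TRN2, one colour per library, with ticks below for CG cytosines listed in no library. The sites called in both mock libraries run from 1100 bp to 862 bp before the end in BIG, begin at 1110 bp in AT1G15940 and lie within 115 bp in TRN2. In AT1G15940 and TRN2 many SNP points lie below the mock points.

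Gene families differed in how many members they contributed. The families were taken from keywords in the annotation, and counts are given beside the 20.9% of all genes and the 36.2% of all genes of 2 kb or more. Pentatricopeptide repeat genes, whose products bind organelle RNA, contained 161 members among 279 genes (57.7%), and 66.5% of those of 2 kb or more were members. Helicases had 61 of 128 (47.7%), splicing factors 27 of 59 (45.8%) and aminoacyl-tRNA synthetases, which charge tRNAs, 29 of 64 (45.3%). Chromatin proteins had 82 of 187 (43.9%), ABC transporters 26 of 60 (43.3%), vesicle traffic 49 of 116 (42.2%) and nuclear transport 16 of 40 (40.0%). DNA replication and repair had 39 of 104 (37.5%), protein kinases 493 of 1388 (35.5%), motor proteins 24 of 75 (32.0%), leucine-rich repeat proteins 109 of 422 (25.8%) and the ubiquitin system 87 of 361 (24.1%). Among genes of 2 kb or more, these lists had between 38.7% (motor proteins) and 66.5% members, all above 36.2%, with the exception of leucine-rich repeat proteins, of which 29.4% were members (106 of 361). The genes with the most called sites in these lists were AT1G74750 (pentatricopeptide), AT1G58060 (helicase), the splicing factor SUS2, the alanyl-tRNA synthetase ALATS, the histone methyltransferase SDG2, the exocyst subunit SEC8, the nuclear pore protein EMB3142, the DNA polymerase-like AT4G32700, the lipid kinase FAB1B, the myosin XIH, the receptor-like kinase AT2G37050 and UPL2. Their lower mock count ranged from 96 sites in AT1G74750 to 348 in UPL2.

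Families with few members lay below the share of all genes in both comparisons. Transcription factor families had 54 members among 791 genes (6.83%) and 13.9% among genes of 2 kb or more. F-box proteins, the substrate adaptors of ubiquitin ligases, had 51 of 653 (7.81%), cytochrome P450 enzymes 23 of 248 (9.27%), ribosomal proteins 12 of 344 (3.49%), glutathione transferases and peroxidases 8 of 157 (5.10%) and photosystem and chlorophyll binding proteins 4 of 68 (5.88%). Histones had 1 of 46, the auxin-induced SAUR proteins 1 of 78 and small secreted peptides 2 of 319. Among genes of 2 kb or more, several of these lists are too small for a comparison. Members were 0 of 2 SAUR genes, 0 of 3 histones, 0 of 4 small secreted peptides and 1 of 6 photosystem and chlorophyll binding genes. The median lengths of these lists ran from 551 bp for small secreted peptides to 2053 bp for cytochrome P450, against 2078 bp for all protein-coding genes. Cytochrome P450 and transcription factor genes (median 1888 bp) were thus close to the length of all genes. The transcription factor with the most called sites was REV, a homeodomain-leucine zipper protein of meristem and leaf polarity, with 100, 100, 106 and 100 sites. CYP97B3 led the cytochrome P450 list, RPL9 the ribosomal proteins, AT5G22700 the F-box proteins, AT5G51890 the peroxidases, AT5G19490 the histone fold proteins, AT1G29490 the SAUR proteins and LHB1B1 the chlorophyll binding proteins.

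To ask whether SNP changed methylation in these genes, the share called and the CG level were compared between mock and SNP libraries. The sites that were called were largely the same. In the 4043 genes that met the rule in all 4 libraries, 98.0% and 97.5% of the sites called in both mock libraries were also called in SNP 1 and SNP 2, and 98.3% and 97.9% of the sites called in both SNP libraries were also called in mock 1 and mock 2. There were 304 sites called in both mock libraries and listed in neither SNP library, and 542 sites in the opposite direction. By contrast, the CG level over 234693 shared sites was lower after SNP. Mock 1 and mock 2 had 88.6% and 88.2%, and SNP 1 and SNP 2 had 85.6% and 85.9%. The means were 88.4% ± 0.267 and 85.7% ± 0.226 (SD, n = 2), a difference of -2.67 points with no overlap between groups and a pooled SD of 0.247. The exact two-sided permutation test gave p = 0.33, the smallest that 2 against 2 libraries allow, so that it cannot reach 0.05. Fewer sites were at or close to full methylation after SNP. A level of 0.9 or more was found at 60.8% and 58.9% of shared sites in mock 1 and mock 2, and at 51.7% and 52.2% after SNP. Depth differed as well. Listed member sites had median depths of 11, 10, 10 and 9 reads in mock 1, mock 2, SNP 1 and SNP 2. After thinning to equal mean depth at the same sites the difference was again -2.67 points. Such thinning leaves the expected level unchanged, so it cannot show whether depth plays a part. The share of sites at 0.9 or more was not thinned, and its relation to depth was not tested. The members had been chosen on the mock libraries. With genes chosen by the same rule in the SNP libraries, the difference was -2.80 points.

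The lower level in SNP libraries was found in exons and introns and along the whole gene. The difference was -2.57 points at exonic sites (pooled SD 0.236) and -3.15 points at intronic sites (pooled SD 0.309), each with no overlap between groups and an exact permutation p of 0.33. The intronic difference was numerically larger in all 10 bins of the gene, although in the first bin the spread between replicates was wide (pooled SD 2.89 points in introns). The level in exons lay 1.02 and 0.963 points below that in introns in the mock libraries and 0.344 and 0.498 points below it in the SNP libraries, without overlap (exact two-sided permutation p = 0.33, the smallest possible). The difference between treatments was -2.30 points in the seventh bin, -3.60 in the second and -3.58 in the last. At ACGT it was -3.91 points and at TCGA -2.26 points. By length it was -3.32, -2.89, -2.66 and -2.35 points from the shortest to the longest class. For the second and last bins against the seventh, ACGT against TCGA and the shortest against the longest class, the gap in level was wider in both SNP than in both mock libraries (exact permutation p = 0.33 for each, the smallest possible). Outside the genes, the difference was -1.93 points at 800 to 1000 bp before the start and -2.95 points at 800 to 1000 bp after the end.

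**Figure D5:**
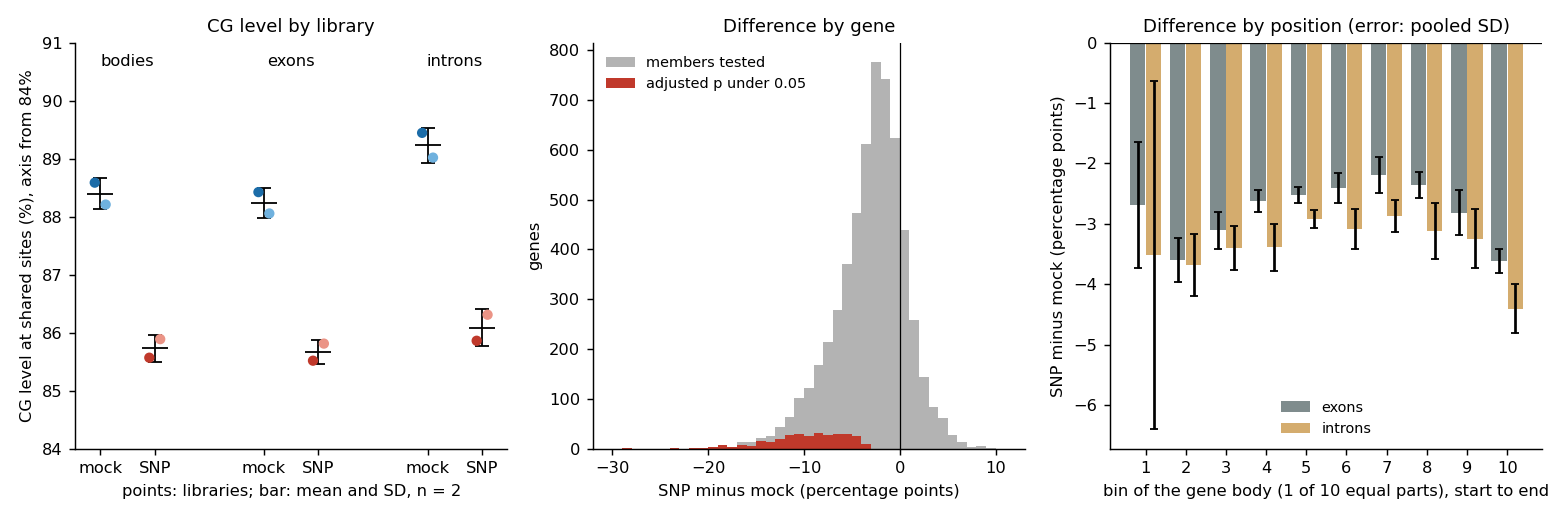
Left, CG level at shared sites by library in bodies, exons and introns of members (axis from 84%), with group mean and SD (n = 2). Middle, SNP minus mock difference of the CG level per member in percentage points, with members at an adjusted p under 0.05 in red. Right, the difference by bin of the body in exons and introns, with the pooled SD of replicates. Both SNP libraries lie below both mock libraries in bodies, exons and introns, and every bin lies below 0.

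Per gene, 5719 members had the 10 shared sites required for a test and 29 did not. In 81.8% of them the mean level was lower in SNP than in mock libraries, with a median difference of -2.60 points. Over all 10924 gene bodies tested these values were close, at 78.9% and -2.56 points, so the lower level was not particular to the members. In 90% of the members the difference lay between -10.2 and 2.31 points. The median absolute difference between the replicates of a group was 2.28 points in mock and 2.51 points in SNP libraries, close to the size of the median treatment difference. Both SNP libraries lay below both mock libraries in 2787 members (48.7%, against 46.3% of all 10924 gene bodies tested) and above them in 264 members (4.62%, against 5.99%). In the edgeR quasi-likelihood test with Benjamini-Hochberg adjustment over all bodies, 317 members (5.54%) were lower in SNP libraries at an adjusted p under 0.05, compared with 5.68% of all bodies. No member was higher, against 0.0366% of all bodies. At an unadjusted edgeR p under 0.05, 20 members were higher and 1281 lower. Together these were 1301 of 5719 members, beside 2435 of 10924 bodies in either direction. Fisher's exact test on pooled reads, which ignores the spread between replicates, called 48 members higher (0.839%, against 1.31% of all bodies). The share of members called lower was thus near that of all bodies. It depended on single libraries. Without SNP 1 the count was 63 (1.10%, against 1.38% of all bodies), without mock 1 it was 126 (2.20% against 2.45%), without SNP 2 it was 144 (2.51% against 2.86%) and without mock 2 it was 285 (4.97% against 4.95%). With a minimum of 10 reads in every library, 908 members could be tested and 0 were called, as were 0 of all 1541 bodies tested. At an unadjusted edgeR p under 0.05 there were 125 of these members and 224 of these bodies.

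The 317 members lower after SNP had a median mock level of 91.3% and a median SNP level of 82.0%, and their differences ranged from -28.96 to -3.42 points with a median of -9.23 points. They were called more often where the mock level was high. The mock level is part of the tested difference, so that classes cut on it are not independent of the call. The share called over all bodies was not computed by mock level. Of members with a mock level of 90% or more 202 of 2066 were called, compared with 4 of 627 below 80%, while the median difference in these classes was -2.65 and -3.09 points. Genes with the smallest p were AT1G15940, a Tudor/PWWP/MBT superfamily protein, and TRN2. In AT1G15940 the CG level over 51 sites was 93.9% and 95.9% in mock and 82.7% and 85.6% in SNP libraries. Its difference was -10.7 points (log2 odds ratio -1.80, edgeR adjusted p = 2.42e-05). In TRN2 the level over the 20 sites of the window shown above was 92.3% and 93.6% in mock and 70.8% and 69.0% in SNP libraries. Its difference was -23.0 points (log2 odds ratio -2.47, edgeR adjusted p = 2.42e-05). The 20 sites of TRN2 lie close together, so that a read was counted at several of them. The counts behind this p are therefore not independent. In both genes the SNP libraries lay well below the mock libraries, while the number of called sites was similar in the 4 libraries, with 72, 71, 72 and 71 in AT1G15940 and 20, 20, 20 and 19 in TRN2.

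The other 4 genes named by the smallest p also had lower levels in both SNP than in both mock libraries. The pentatricopeptide gene AT1G14470 had 93.3% and 91.3% in mock and 77.7% and 68.7% in SNP libraries, with the widest spread between the SNP replicates. AT3G14172, annotated as a GPI-anchored adhesin-like protein, had 93.8% and 92.7% in mock and 85.7% and 86.1% in SNP libraries over 124 sites. AT4G17610, a tRNA/rRNA methyltransferase family protein, had 92.8% and 92.0% in mock and 85.9% and 85.2% in SNP libraries over 168 sites. ATH9, an ABC2 homolog, had 92.7% and 92.6% in mock and 80.6% and 79.5% in SNP libraries. Their edgeR adjusted p values ranged from 9.04e-05 in AT1G14470 to 0.00016 in ATH9. All 6 genes were also called when any single library was left out, with adjusted p values of at most 0.046. At 10 reads, AT1G15940, AT3G14172 and AT4G17610 could be tested and did not pass, with adjusted p values of 0.398, 0.427 and 0.071.

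Of the gene families above, cytochrome P450 members had the lowest median difference among lists with at least 10 members, -8.34 points over 23 genes (range -15.3 to 5.38), with 2 called lower. It compares with a median of -2.60 points over all members tested. The SNP libraries lay below the mock libraries without overlap in 52.2% of the P450 members, against 48.7% of all members tested. CYP97B3 went in the other direction, with 82.6% and 83.7% in mock and 84.1% and 86.4% in SNP libraries, and did not pass the test (edgeR adjusted p = 0.675). The counts of called members are read beside the 5.54% called over all members and the 5.68% over all bodies. ABC transporters had a median of -4.00 points (2 of 26 called, 7.69%), transcription factors -3.95 points (4 of 54, 7.41%) and protein kinases -2.70 points (37 of 491, 7.54%). Helicases had -2.15 points (6 of 61, 9.84%) and motor proteins -1.98 points (4 of 24, 16.7%). Pentatricopeptide genes had -2.01 points (6 of 160, 3.75%), chromatin proteins -1.61 points (4 of 82, 4.88%) and DNA replication and repair -1.48 points (0 of 39). The light-harvesting gene LHB1B1 was called, with 81.4% and 77.7% in mock and 64.6% and 61.7% in SNP libraries (edgeR adjusted p = 0.0493), and was not called without mock 1, SNP 1 or SNP 2 (adjusted p up to 0.251). In REV the level was 92.2% and 93.8% in mock and 91.01% and 89.8% in SNP libraries, and in SDG2 it was 91.9% and 90.4% in mock and 91.3% and 90.8% in SNP libraries. Neither passed the test, with adjusted p values of 0.203 and 0.969 in edgeR.

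Of 25 genes named by the study, 3 were members. CRN encodes CORYNE, a kinase-like membrane protein that takes part in CLAVATA signaling in the meristem. It had 20, 21, 20 and 18 called sites, and those called in both mock libraries lay within 387 bp near the end of the gene. Its CG level over 13 shared sites was 86.5% and 87.1% in mock and 68.4% and 68.7% in SNP libraries. Its difference of -18.2 points was called by edgeR (adjusted p = 0.0303), but not when any single library was left out (adjusted p 0.0739 to 0.167). MET1 itself had 43, 38, 45 and 43 called sites. Its level was 85.1% and 80.9% in mock and 73.3% and 73.3% in SNP libraries, without overlap, and the difference of -9.72 points did not pass the test (edgeR adjusted p = 0.104). ERL1, a receptor kinase of stomatal patterning, had 60, 61, 60 and 66 called sites and a level of 87.7% and 87.7% in mock and 82.7% and 86.6% in SNP libraries (edgeR adjusted p = 0.471). AGO4 had 61, 64, 62 and 64 called CG sites and missed the rule because of 4 CHG or CHH sites in mock 2. The stem cell genes WUS and CLV3 had no called CG site in any library.

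The CG-only state was not identical in all libraries. Of the 5748 genes, 4043 (70.3%) met the rule in the SNP libraries as well. Most of the others exceeded the CHG and CHH limit (1579 genes), while 107 fell below 20 CG sites and 19 failed both. In the opposite direction, 5242 genes met the rule in the SNP libraries and 77.1% of them were members. Of those that were not, 1103 exceeded the CHG and CHH limit in a mock library. Over the members, mock 1 and mock 2 had 1226 and 1440 CHH sites at 0.3 or more, and SNP 1 and SNP 2 had 4465 and 5394. Over the genes chosen on SNP libraries, mock 1 and mock 2 had 3108 and 3676, whereas SNP 1 and SNP 2 had 1431 and 1521. The order thus followed the libraries that chose the genes, and no treatment difference is read from these counts. Between 59.2% and 76.2% of these CHG and CHH sites in members had exactly 2 methylated reads.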

How the data were processed

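EM-seq libraries of shoot apices (2 mock, 2 SNP) were grouped by the treatment label, with replicate numbers from the titles. The authors used FastQC and Bismark with the build TAIR10, per the submitters' processing notes, whose versions are not given in the sources used here, and deposited 1 list of called cytosines per library. The deposited level of each site is a fraction, and the deposited depth is a count of reads. Level times depth was whole in 100% of the rows (within 5e-05 per read of depth), which gave the methylated reads, and 100% of nuclear positions fell on a cytosine of the RefSeq genome TAIR10.1, whose gene models were used (1 transcript per gene, that with the longest coding sequence). Every listed site had at least 2 methylated reads. A read that covers several sites was counted at each, so that counts are not independent.

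The rule, the 22 keyword lists and the tests were chosen with earlier results of these data known, and some keywords were narrowed after first counts were seen because they matched unrelated genes. Named genes were the 6 members with the most called sites, the 6 with the highest share called, the 6 with the smallest p in each direction whose groups did not overlap (none in the higher direction), members named by the study, and the member of each list with the most called sites (1 of these genes is not reported here). Differences in level were tested by edgeR 4.0.16 (limma 3.58.1, R 4.3.3) on methylated and unmethylated counts over all 10924 bodies with at least 10 sites of 5 or more reads in each library, without covariates, and by exact permutation tests over libraries. The study's minimum of 10 reads left a median of 4 sites per member and was used as an alternative. The edgeR step was tested on simulated data. Other steps used python 3.11.15, numpy 2.4.6, pandas 2.3.3 and matplotlib 3.10.9.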

Additional observations from a re-analysis of the deposited data

How the results depend on the processing

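The number of members was 1263 with a level of 0.2 in place of 0.3 and 2956 with no CHG or CHH site allowed. The 2 mock libraries taken alone gave 6598 and 6814 members. Of members lower in SNP libraries, 317 in the reported test, there were 0 at 10 reads, 1681 by Fisher's exact test on pooled reads and 63 to 285 when 1 library was left out. Members higher in SNP libraries, 0 in the reported test, numbered 1 over every site listed in all 4 libraries, 48 by Fisher's exact test on pooled reads and 0 when 1 library was left out. The difference in CG level over bodies ranged from -2.86 to -2.46 points over all alternatives, and its direction and that of exons and introns was the same in each. The exon minus intron share of 4.60 points was 8.76 as a mean over genes and 11.4 in the middle 8 bins of the body, and the longest minus shortest length class was 4.61 as a mean over genes. Leaving out 1 library raised the smallest possible sign-flip p to 0.25.

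A replicate block in the edgeR fit gave 290 members lower (5.07%, against 5.19% of all bodies) and 0 higher, and 286 of the 317 were called in both fits. Of the named genes called in the reported test, LHB1B1 was not called with the block (edgeR adjusted p = 0.063). Deviations of same-numbered libraries from their group means had a correlation of -0.00469, so that the numbers gave no sign of pairing. Median depths of 8 to 10 reads limit the precision of single sites and leave small differences of single genes undetectable.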
